A study of Mus musculus with 10 samples.

Results

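Voltage-gated calcium channel subunits were followed as 8 genes across 10 messenger RNA libraries of the left atrium of adult mice. They were the pore-forming L-type genes Cacna1c and Cacna1d, the pore-forming T-type genes Cacna1g and Cacna1h, the beta subunit gene Cacnb2, and the alpha2delta genes Cacna2d1, Cacna2d2 and Cacna2d3. The members were chosen by their symbols, which matched 8 of the 37583 gene rows in each library, and all 8 had enough counts to enter the test, as did 15364 genes in all. Mice given ibrutinib (IBR), a tyrosine kinase inhibitor used against B cell cancers, and mice given vehicle (CTL) gave 3 libraries each. Mice labelled as a cardiac knockout of Csk (KO), the kinase that holds Src family kinases inactive, and untreated wild-type mice (WT) gave 2 libraries each. The series title names atrial fibrillation mediated by ibrutinib, while on strain, sex, dose, length of treatment and the driver of the knockout nothing is given in the sources used here. Nothing in the labels says that the libraries of a group came from separate animals, so p-values measure the spread between these libraries, which may be technical.

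A voltage-gated calcium channel opens when the membrane depolarizes and lets calcium into the cell. Its alpha1 subunit forms the pore, a beta subunit brings the L-type pore to the membrane and shifts its gating, and an alpha2delta subunit on the outer face raises the number of channels at the surface. In heart muscle the L-type current carries the plateau of the action potential and triggers calcium release from the sarcoplasmic reticulum, while T-type channels open at more negative voltages and are best known from pacemaker and conduction tissue and from the embryonic heart.

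Each library held between 14907331 and 19960947 counts on genes. Levels are given as counts scaled to a common library size (CPM). Of the 8 atrial markers, Myl7 (2044 to 8990 CPM) and Nppa (3687 to 6327 CPM) were abundant in every library, and Kcna5 was the lowest (6.7 to 20.1 CPM). The summed level of all 8 was 15510 and 10470 CPM in KO26 and KO337, against 21020 and 19560 CPM in WT35 and WT338. Of the 5 ventricular markers, Myl2, Irx4 and Hey2 reached at most 8.62, 0.144 and 3.03 CPM. Myl3 ranged from 5.6 to 173 CPM and Myh7 from 78.1 to 856 CPM. The targeted gene did not follow its label: Csk reached 24.7 and 35.5 CPM in KO26 and KO337, against 18.3 and 17.8 CPM in WT35 and WT338 (adjusted p = 0.0608 in edgeR's quasi-likelihood test). A sum over all exons and all cells of the tissue cannot show whether an exon was lost in the muscle, so each direction below is that of the labels. The summed level of the 16 cardiomyocyte markers was 61720 and 33800 CPM in KO26 and KO337, against 82190 and 78610 CPM in WT35 and WT338. That of the 11 fibroblast markers was 5762 and 16990 CPM in KO26 and KO337, against 5515 and 5045 CPM in WT35 and WT338, so KO337 stood apart from the other libraries in these markers. In whole tissue, fewer cells of a type and less RNA per cell cannot be told apart.

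The sequences at the start of the alpha2delta genes are shown because these paralogs, which encode the same kind of subunit, differed most among themselves in the genotype comparison below. Promoter windows of 250 bases before to 50 bases after a gene start were matched by symbol in RefSeq (GRCm38.p6) for 6 of the 8 members, all but Cacna1g and Cacna1h. The windows below run 5′ to 3′ in the direction of the gene, and capitals mark each match to the GC box GGGCGG on either strand, where neighbouring matches can overlap. They lie at chr5:15934441-15934740 on the plus strand for Cacna2d1, at chr9:107399630-107399929 on the plus strand for Cacna2d2 and at chr14:29721815-29722114 on the minus strand for Cacna2d3.
Cacna2d1: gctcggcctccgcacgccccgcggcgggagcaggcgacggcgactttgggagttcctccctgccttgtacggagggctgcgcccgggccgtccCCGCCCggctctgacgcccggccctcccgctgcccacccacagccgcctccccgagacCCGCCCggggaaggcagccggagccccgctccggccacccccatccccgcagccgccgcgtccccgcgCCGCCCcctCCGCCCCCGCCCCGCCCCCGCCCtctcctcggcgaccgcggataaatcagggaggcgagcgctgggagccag
Cacna2d2: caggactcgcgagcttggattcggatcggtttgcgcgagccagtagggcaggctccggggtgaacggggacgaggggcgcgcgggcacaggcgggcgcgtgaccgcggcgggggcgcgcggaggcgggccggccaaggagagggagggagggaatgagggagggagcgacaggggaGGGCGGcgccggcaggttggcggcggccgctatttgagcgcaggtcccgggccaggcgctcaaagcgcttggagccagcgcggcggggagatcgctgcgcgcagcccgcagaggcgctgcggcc
Cacna2d3: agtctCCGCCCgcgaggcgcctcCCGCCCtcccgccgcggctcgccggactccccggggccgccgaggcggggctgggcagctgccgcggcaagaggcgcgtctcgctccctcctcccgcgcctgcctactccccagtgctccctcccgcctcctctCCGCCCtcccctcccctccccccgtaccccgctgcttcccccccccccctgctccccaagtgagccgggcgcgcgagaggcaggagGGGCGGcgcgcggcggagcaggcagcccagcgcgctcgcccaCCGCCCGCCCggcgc
Cacna2d1 held 7 GC boxes, Cacna2d2 held 1 and Cacna2d3 held 6, and 35.9% of 32544 promoter windows of this length hold at least 1. G and C made up 80%, 75.7% and 81.3% of the bases of Cacna2d1, Cacna2d2 and Cacna2d3, where the median over all windows was 53%. No TATAAA was found in these 3 windows on either strand (13.6% of all windows hold it), and no MEF2 site (0.559%). The E-box CANNTG was found at 2 places in Cacna2d3 and at 0 places in Cacna2d1 and Cacna2d2, while 72.3% of all windows hold it. Such matches describe the letters of the windows and say nothing of binding.

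Transcripts of the T-type gene Cacna1h were the most abundant of the 8 in 9 of 10 libraries when levels were divided by exon length. Without this division it was still the highest in IBR and CTL, but not in KO and WT. There Cacna2d1 stood above Cacna1h, at 140.4 and 105 against 110.5 and 63.3 CPM in KO26 and KO337. In WT35 and WT338 Cacna2d1 stood at 222 and 215 CPM, against 188 and 186 CPM for Cacna1h. Per kilobase of exon Cacna1h stood at 35.7, 44.9 and 37.7 CPM in IBR1 to IBR3, against 48.7, 44.9 and 43.1 CPM in CTL1 to CTL3. In KO26 and KO337 it stood at 11.3 and 6.48 CPM per kilobase, against 19.3 and 19.0 CPM per kilobase in WT35 and WT338. Cacna1h thus made up 80.1% to 81.4% of the summed alpha1 level in IBR and 81.1% to 84.8% in CTL, but 59.3% and 49.4% in KO26 and KO337 and 67.6% and 62.6% in WT35 and WT338. The L-type gene Cacna1c, which carries the main calcium current of heart muscle, ranged from 3.55 to 7.46 CPM per kilobase over all libraries, with a median of 5.94. Cacna1d, the L-type gene best known from the sinus node and from neuroendocrine cells, ranged from 0.904 to 2.23, and the T-type gene Cacna1g from 1.15 to 2.43 CPM per kilobase. Cacna1d and Cacna1g overlapped in range and changed places between libraries, Cacna1g being the higher of this pair in IBR and CTL and in WT35.

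Among the accessory subunits, Cacna2d1, which encodes the main alpha2delta subunit of heart and skeletal muscle, was the most abundant per kilobase in every library, at 8.46 to 17.8 CPM. Cacnb2, the main beta subunit of heart muscle, ranged from 3.19 to 7.37 CPM per kilobase, close to the range of Cacna1c. Their order changed between libraries, with Cacnb2 above Cacna1c in CTL1 and WT35. Cacna2d2 and Cacna2d3, both best known from the nervous system, ranged from 2.46 to 6.26 and from 0.732 to 3.65 CPM per kilobase. The exception to the order was KO337, where Cacna2d1 (8.46) stood above Cacna1h (6.48), Cacna2d2 (6.26) came next and Cacna2d3 (0.732) was last. Exon lengths came from a later annotation than that of the counts, so these levels compare genes only roughly.

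**Figure D1:**
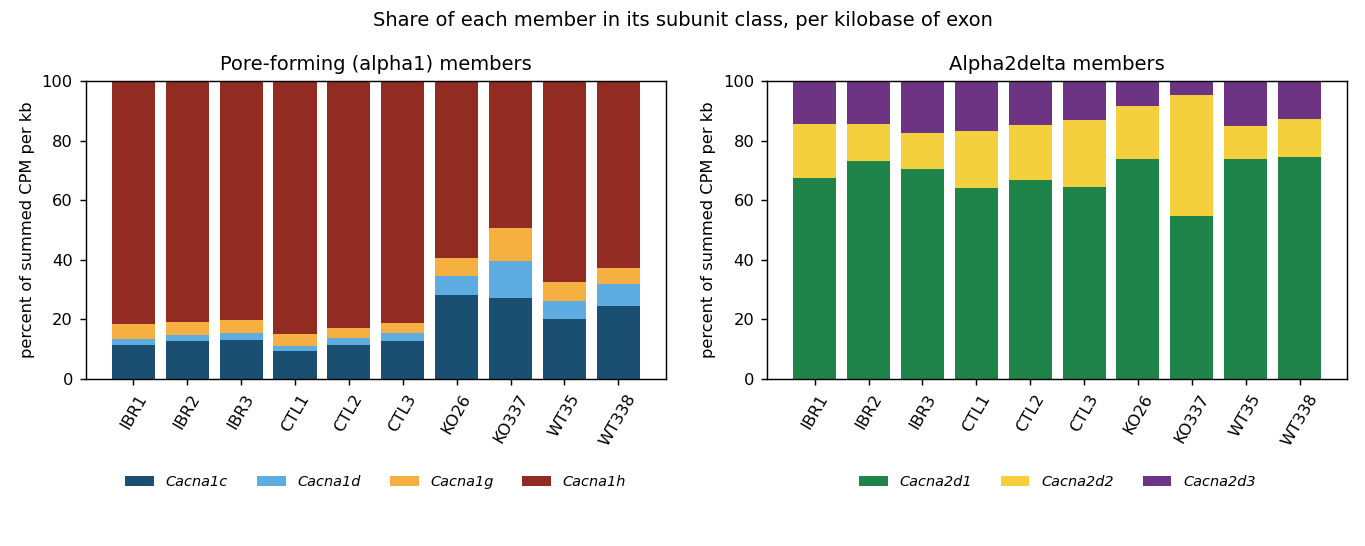
Share of each gene, in percent of the summed CPM per kilobase of exon, among the 4 alpha1 members (left) and the 3 alpha2delta members (right), one bar per library. Cacna1h takes 80.1% to 84.8% of the alpha1 level in IBR and CTL and 49.4% in KO337, and Cacna2d2 takes 40.5% of the alpha2delta level in KO337 and 11.2% to 22.6% in the other libraries.

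Ibrutinib against vehicle gave no called member. Here a gene was called when its p-value from edgeR's quasi-likelihood test, adjusted by Benjamini-Hochberg over all 15364 genes, was under 0.05. Of the 8 members 0 were called, as were 0% of all genes, and 0 members had an unadjusted p under 0.05, against 5.52% of all genes in either direction and 2.21% with a lower level. DESeq2 called 0 members and 2 genes in all. Negative differences were found for 5 members and for 55.2% of all genes, and the member differences had a median of -0.08 on the log2 scale, beside -0.03 over all genes.

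The pore-forming genes overlapped between the drug and vehicle groups. Cacna1c (ENSMUSG00000051331) stood at 106, 150.1 and 129 CPM in IBR1 to IBR3, against 115, 129 and 144 CPM in CTL1 to CTL3, a log2 difference of -0.01 with a 95% interval from -0.43 to 0.41. Cacna1h (ENSMUSG00000024112) stood at 348, 439 and 368 CPM in IBR1 to IBR3, against 475, 438 and 421 CPM in CTL1 to CTL3. Its log2 difference was -0.21 (interval -0.64 to 0.22), and IBR1 and IBR3 lay below every CTL library while IBR2 lay between them. Cacna1d (ENSMUSG00000015968) stood at 11.4, 14.99 and 14.1 CPM in IBR1 to IBR3, against 11.8, 16.4 and 16.8 CPM in CTL1 to CTL3. Cacna1g (ENSMUSG00000020866) stood at 22.6, 24.6 and 22.1 CPM in IBR1 to IBR3, against 23.6, 18.4 and 19.7 CPM in CTL1 to CTL3, and its interval ran from -0.15 to 0.48.

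Of the accessory subunits, Cacna2d2 (ENSMUSG00000010066) was the 1 member whose drug and vehicle libraries did not overlap. It stood at 26.3, 24.0 and 19.6 CPM in IBR1 to IBR3, against 31.1, 35.9 and 32.7 CPM in CTL1 to CTL3. Its log2 difference of -0.51 (SE 0.25, interval -1.07 to 0.05) was not called (adjusted p = 0.823 in edgeR's quasi-likelihood test), and 7.55% of all genes lay lower in IBR without overlap, 5.91% higher and 13.5% in either direction. Per 1000 counts of the cardiomyocyte markers its groups overlapped, with 0.328, 0.282 and 0.248 counts in IBR1 to IBR3, against 0.322, 0.412 and 0.373 counts in CTL1 to CTL3. The summed cardiomyocyte markers themselves stood at 80310, 85120 and 78930 CPM in IBR1 to IBR3, against 96380, 87130 and 87800 CPM in CTL1 to CTL3, and the macrophage markers at 584, 412 and 441.5 CPM in IBR1 to IBR3, against 314, 309 and 377 CPM in CTL1 to CTL3. Neither list overlapped between drug and vehicle on this scale. As a share of all gene counts the cardiomyocyte markers did overlap. They made up 8.11%, 7.77% and 7.67% in IBR1 to IBR3, against 8.64%, 7.57% and 8.5% in CTL1 to CTL3. Fibroblast markers overlapped too, at 5230, 3415 and 5608 CPM in IBR1 to IBR3, against 2528, 2394 and 3572 CPM in CTL1 to CTL3. The part of other cell types in the member values was not tested. The beta subunit gene Cacnb2 (ENSMUSG00000057914) stood at 65.1, 78.4 and 64.8 CPM in IBR1 to IBR3, against 83.2, 64.7 and 82.0 CPM in CTL1 to CTL3, so that the groups overlapped. Cacna2d1 (ENSMUSG00000040118) stood at 152, 219 and 179.7 CPM in IBR1 to IBR3, against 163, 204 and 146 CPM in CTL1 to CTL3. Cacna2d3 (ENSMUSG00000021991) stood at 22.5, 30.0 and 31.5 CPM in IBR1 to IBR3, against 30.3, 31.5 and 20.8 CPM in CTL1 to CTL3, a log2 difference of 0.03 with an interval from -0.49 to 0.54. Apart from Cacna2d2, the members overlapped between drug and vehicle, and their intervals lay between -0.64 and 0.54.

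**Figure D2:**
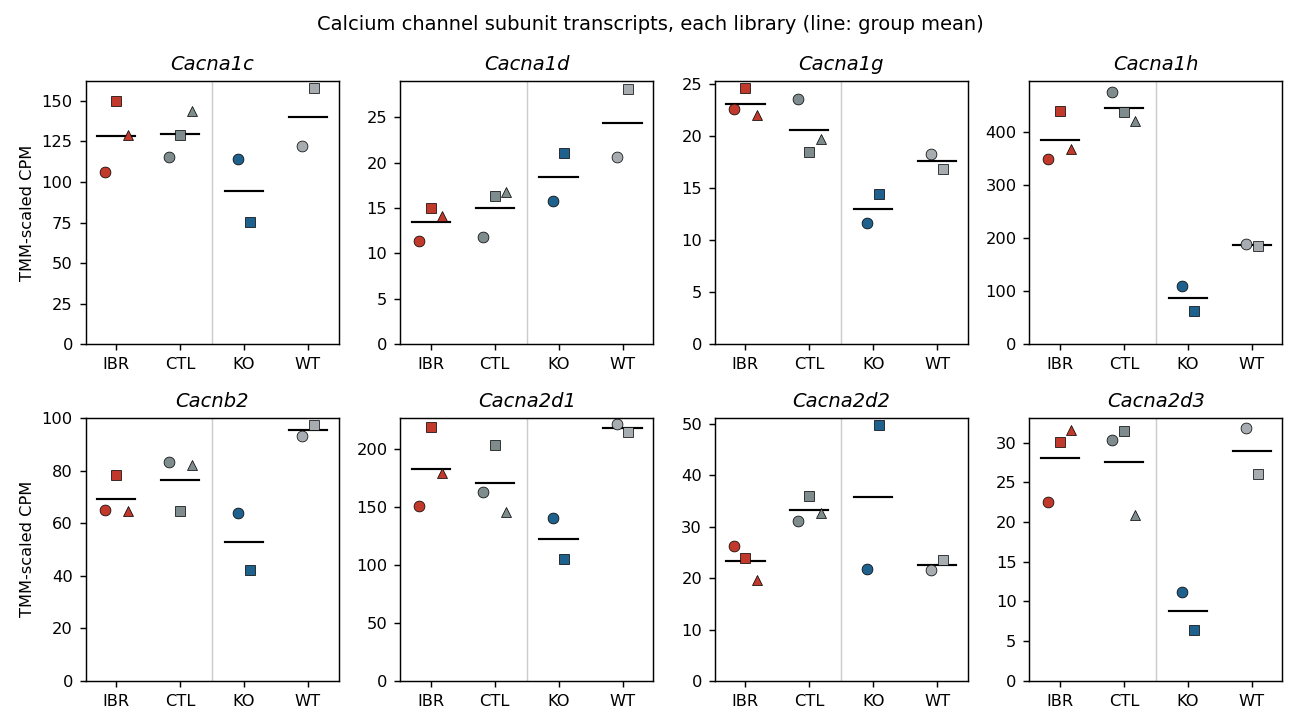
TMM-scaled CPM of each member in each library, one symbol per library, with a line at the group mean; IBR stands beside CTL and KO beside WT. Both KO libraries lie below both WT libraries for 6 members, KO337 lies far above the rest of its experiment for Cacna2d2, and IBR and CTL overlap for all members but Cacna2d2.

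In the genotype comparison 7 of the 8 members had negative differences in the libraries labelled KO, as did 49.2% of all genes, and Cacna2d3 and Cacna1h fell beyond the threshold. These 2 called members compare with 0.898% of all genes called lower, 1.31% called higher and 2.21% called in either direction. An unadjusted p under 0.05 with a lower level was found for 6 members and 12.4% of all genes, and in either direction for 25.7% of all genes. Both KO libraries lay below both WT libraries for 6 members, as for 26.9% of all genes. The median log2 difference of the members was -0.70, beside 0.01 over all genes.

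Cacna2d3 showed the largest fall of the 8. It stood at 11.2 and 6.38 CPM in KO26 and KO337, against 31.9 and 26.03 CPM in WT35 and WT338. Both KO libraries were low, at 38.7% and 22.1% of the WT mean, and the groups lay far apart. The fold was 3.31 (log2 -1.73, SE 0.30, interval -2.38 to -1.07), with an adjusted p of 0.0312 in edgeR's quasi-likelihood test. Cacna1h followed, at 110.5 and 63.3 CPM in KO26 and KO337, against 188 and 186 CPM in WT35 and WT338 (log2 -1.11, SE 0.24, adjusted p = 0.0465 by the same test). The WT libraries differed little, and KO337 lay well below KO26.

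These calls rested on the libraries and on the fit, whose estimate of spread was shared with the IBR and CTL libraries. Fitted apart, the common coefficient of variation was 0.167 for IBR with CTL and 0.291 for KO with WT. The shared estimate thus drew on the less variable drug experiment. Without KO337 the log2 differences were -1.39 for Cacna2d3 and -0.78 for Cacna1h with adjusted p of 0.093 and 0.0981, where 0.348% of all genes were called. Without WT338 or WT35 the adjusted p were 0.096 and 0.143 for Cacna2d3 and 0.184 and 0.199 for Cacna1h, and a fit to the WT and KO libraries alone called neither (adjusted p = 0.297 and 0.324). Without KO26 5 members were called lower, beside 13% of all genes, and Cacna2d2 was called higher, beside 11.3%. DESeq2 called 4 members lower, beside 6.05% of all genes.

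Other subunits of the muscle channel differed by less. Cacnb2 stood at 63.8 and 42.2 CPM in KO26 and KO337, against 93.3 and 97.5 CPM in WT35 and WT338, a log2 difference of -0.85 (SE 0.21) with an adjusted p of 0.0598 in edgeR's quasi-likelihood test. Cacna2d1 stood at 140.4 and 105 CPM in KO26 and KO337, against 222 and 215 CPM in WT35 and WT338 (log2 -0.83, SE 0.22, adjusted p = 0.0719 by the same test). For both genes the groups did not overlap, and DESeq2 called both (adjusted p = 0.00465 for Cacnb2 and 0.0101 for Cacna2d1). Cacna1c stood at 114 and 75.2 CPM in KO26 and KO337, against 122 and 158 CPM in WT35 and WT338, a log2 difference of -0.57 (SE 0.23, interval -1.08 to -0.05, adjusted p = 0.16 in edgeR's test). Here KO26 lay just below WT35, and without KO337 the difference was -0.32.

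The less abundant pore genes were not lower in KO337 than in KO26. Cacna1d stood at 15.8 and 21.1 CPM in KO26 and KO337, against 20.7 and 28.2 CPM in WT35 and WT338, and its groups overlapped. Cacna1g stood at 11.7 and 14.4 CPM in KO26 and KO337, against 18.3 and 16.9 CPM in WT35 and WT338 (log2 -0.43, SE 0.17, adjusted p = 0.159 in edgeR's quasi-likelihood test). Its groups did not overlap, with both KO libraries below both WT libraries, as for 26.9% of all genes. KO26 was the lower of the KO pair for Cacna1d, Cacna1g and Cacna2d2, and KO337 for the other 5 members.

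Cacna2d2 was the 1 member with a higher mean in the libraries labelled KO. It stood at 21.7 and 49.7 CPM in KO26 and KO337, against 21.5 and 23.5 CPM in WT35 and WT338. KO26 lay among the WT libraries and KO337 alone was high. The log2 difference of 0.67 (SE 0.31, interval -0.02 to 1.36) was not called (adjusted p = 0.204 in edgeR's quasi-likelihood test), and without KO337 it was -0.07. Within the alpha2delta class, Cacna2d2 thus took 17.8% and 40.5% of the summed level per kilobase in KO26 and KO337, against 11.2% and 12.7% in WT35 and WT338. Cacna2d3 took 8.38% and 4.74% in KO26 and KO337, against 15.1% and 12.8% in WT35 and WT338. In KO337 the fibroblast and macrophage marker lists stood at 16990 and 3338 CPM, against 5045 to 5762 CPM and 545 to 914 CPM in the other 3 libraries of the experiment, and their part in the Cacna2d2 level was not tested.

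**Figure D3:**
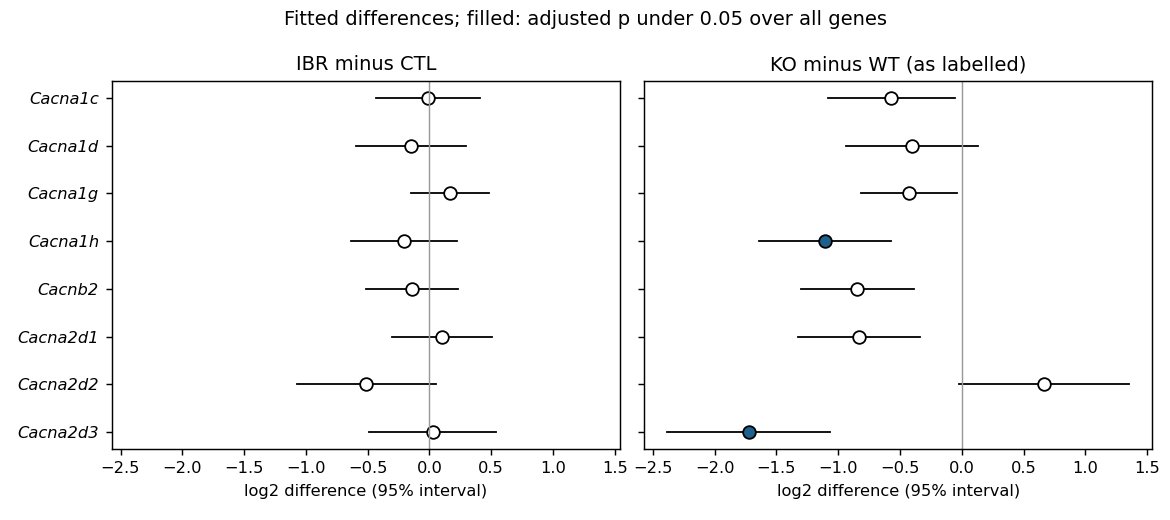
Log2 difference of each member with its 95% interval from the fit over all genes, IBR minus CTL on the left and KO minus WT on the right; filled points have an adjusted p under 0.05. Cacna1h (-1.11) and Cacna2d3 (-1.73) are the filled points, and Cacna2d2 (0.67) is the 1 point above 0 in the genotype comparison.

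Cardiomyocyte markers moved with the members. All 15 tested cardiomyocyte markers had negative differences between the libraries labelled KO and WT, with a median of -0.76, and for all 15 the groups did not overlap. Scaling the libraries to the summed counts of these markers, instead of to all genes, moved the median difference of all genes from 0.01 to 0.88, and the differences of the members then spread around 0. Myh6 gave the most counts to this sum in every library, with 738402 in WT35 and 284435 in KO337. The markers themselves differed by -1.40 to -0.39, so the member differences depend on the markers chosen. The intervals on this scale take the sum as given. Cacnb2 and Cacna2d1 differed by -0.06 (interval -0.55 to 0.43) and -0.01 (interval -0.56 to 0.54), and Cacna1c by 0.22 (interval -0.33 to 0.77). Cacna1d and Cacna1g were positive at 0.52 and 0.49, and neither they nor Cacna1c kept the sign they had under scaling to all genes.

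Relative to the cardiomyocyte markers, Cacna2d3 was called lower and Cacna1h was not called. Per 1000 counts of these markers there were 0.181 and 0.189 counts of Cacna2d3 in KO26 and KO337, against 0.388 and 0.331 in WT35 and WT338. The KO libraries were nearly alike on this scale and lay well below WT (log2 -0.96, SE 0.28, adjusted p = 0.025 in edgeR's test with this scaling, where 0.56% of all genes were called lower). Cacna1h had 1.79 and 1.87 counts per 1000 marker counts in KO26 and KO337, against 2.29 and 2.37 in WT35 and WT338. Its groups did not overlap either, though the share of all genes without overlap on this scale was not counted. The log2 difference of Cacna1h, -0.35 (interval -0.74 to 0.05), was not called (adjusted p = 0.124 by the same test). Cacna2d2 had 0.352 and 1.47 counts per 1000 marker counts in KO26 and KO337, against 0.262 and 0.299 in WT35 and WT338, and was called higher on this scale (log2 1.70, adjusted p = 0.0247), as were 47.3% of all genes.

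**Figure D4:**
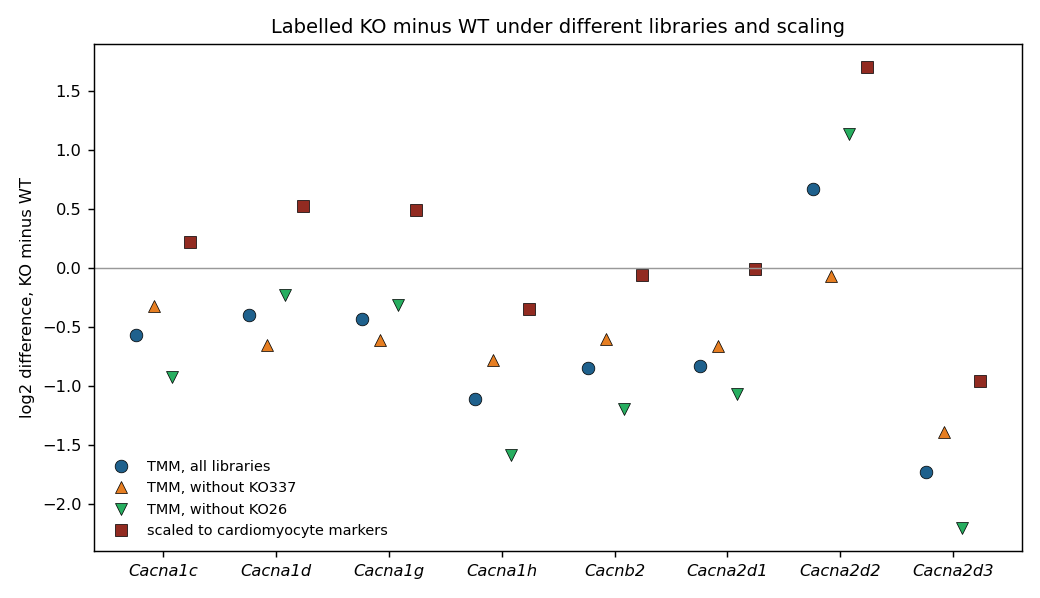
Log2 difference of each member, KO minus WT, with all libraries scaled by TMM, without KO337, without KO26, and scaled to the cardiomyocyte markers. Cacna2d3 lies below 0 in all 4 (-2.20 to -0.96), as does Cacna1h (-1.58 to -0.35), while Cacna1c, Cacna1d and Cacna1g lie above 0 with the marker scaling alone.

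The balance of T-type to L-type transcripts was compared within each library, which needs no scaling between libraries. The ratio of Cacna1g and Cacna1h to Cacna1c and Cacna1d, per kilobase, was 1.88 and 1.51 in KO26 and KO337, against 2.84 and 2.14 in WT35 and WT338. Both KO ratios lay below both WT ratios, with a log2 difference of -0.55 and an exact two-sided permutation p of 0.33, which is the smallest that 2 against 2 libraries allow. With no division by length the ratio was 0.942 and 0.807 in KO26 and KO337, against 1.44 and 1.09 in WT35 and WT338. Whether T-type transcripts exceeded L-type ones in the KO libraries thus depended on this division. In the drug comparison the ratio per kilobase was 6.40, 5.72 and 5.53 in IBR1 to IBR3, against 7.998, 6.32 and 5.55 in CTL1 to CTL3. These overlapped (log2 difference -0.16, exact permutation p = 0.6, where 3 against 3 libraries allow no less than 0.1).

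The genotype and drug differences were also set against each other in the same fit, as both experiments have their own controls. No member was called for the difference of effects by edgeR's quasi-likelihood test, where 0.026% of all genes were. An unadjusted p under 0.05 was found for 6 members and 9.79% of all genes, with a negative difference for 5 of the 6 and for 4.82% of all genes. Cacna2d3 was the nearest, with a difference of effects of -1.75 on the log2 scale (SE 0.38, adjusted p = 0.248), followed by Cacna2d1 at -0.93 (SE 0.29, adjusted p = 0.387). Cacna2d2 had the opposite sign, at 1.18 (SE 0.40, adjusted p = 0.406), since it was lower on average in IBR than in CTL and higher in KO337. By DESeq2 Cacna2d3 was called (adjusted p = 0.00599 in its Wald test), among 140 genes called of the 15364 tested.

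The remaining calcium channel genes were not called in either comparison. Of 18 other alpha1, beta, alpha2delta and gamma subunit genes 8 had enough counts to be tested, and their summed level was 37.2 to 46.6 CPM in IBR, 37.8 to 44.5 CPM in CTL, 42.9 and 48.1 CPM in KO26 and KO337, and 40.1 and 36.3 CPM in WT35 and WT338. Per kilobase the most abundant overlapped the less abundant members: Cacnb1, the main beta subunit of skeletal muscle, named here after its values were seen, ranged from 1.68 to 3.23 CPM per kilobase and the gamma subunit gene Cacng7 from 0.886 to 3.80. Cacnb3 reached 3.22 CPM per kilobase in KO337, beside 3.19 for Cacnb2 there. In the genotype comparison 0 of the 8 were called, and their median log2 difference was 0.01, beside 0.01 over all genes. Cacnb3, a beta subunit best known from neurons and smooth muscle, stood at 5.92 and 12.9 CPM in KO26 and KO337, against 4.01 and 3.83 CPM in WT35 and WT338 (log2 1.27, SE 0.36, adjusted p = 0.0793 in edgeR's quasi-likelihood test). Cacna1e, the R-type pore gene, had 0.174 and 0.272 CPM in KO26 and KO337, values of a few counts, against 0.346 and 1.64 CPM in WT35 and WT338 (adjusted p = 0.147). Cacng7 differed by 0.69 (adjusted p = 0.288). In the drug comparison 0 of the 8 were called, and the smallest p-values belonged to Cacng4 (log2 -1.23, under 1 CPM in every library), Cacnb4 (0.51) and Cacng7 (0.45), with adjusted p of 0.824 to 0.826.

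Regulators of calcium channels were not called in either comparison. The 29 tested genes, among them calmodulins, protein kinase A subunits, adrenergic receptors and the small GTPases that inhibit L-type channels, had a median log2 difference of 0.01 between the libraries labelled KO and WT, and of -0.13 between IBR and CTL. That genotype median covers genes moving both ways. Both KO libraries lay below both WT libraries for 11 of the 29 and above them for 5, beside 26.9% and 26.3% of all genes. In the genotype comparison the smallest p-values belonged to Fgf12, a fibroblast growth factor homologous factor that modulates sodium channels, to Cav3, the caveolin of muscle, and to Kcnip2, an auxiliary subunit of potassium channels. Fgf12 stood at 235 and 153 CPM in KO26 and KO337, against 372 and 348 CPM in WT35 and WT338 (log2 -0.89, adjusted p = 0.0643 in edgeR's quasi-likelihood test). Cav3 differed by -0.82 (adjusted p = 0.081). Kcnip2 ran the other way, at 38.5 and 30.7 CPM in KO26 and KO337, against 17.96 and 19.6 CPM in WT35 and WT338 (log2 0.88, adjusted p = 0.0885). Between IBR and CTL the smallest p-values belonged to Calm3 (log2 -0.26), to Rrad, which encodes the GTPase Rad that inhibits L-type channels (-0.61), and to Ahnak (0.31), each with an adjusted p of 0.823. Rrad stood at 147, 285 and 137 CPM in IBR1 to IBR3, against 266, 353 and 249 CPM in CTL1 to CTL3, so that IBR2 lay among the CTL libraries.

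Calcium cycling genes downstream of the channels were lower on average in the libraries labelled KO, without a called gene. Negative differences were found for 10 of 12 tested genes. Their median was -0.73, close to that of the channel members (-0.70) and of the cardiomyocyte markers (-0.76). Casq2, the calcium store protein of the sarcoplasmic reticulum, stood at 823 and 558 CPM in KO26 and KO337, against 1268 and 1378 CPM in WT35 and WT338 (log2 -0.94, adjusted p = 0.0601 in edgeR's quasi-likelihood test). Hrc, a calcium-binding protein of the same store, stood at 718 and 254 CPM in KO26 and KO337, against 1199 and 1095 CPM in WT35 and WT338 (adjusted p = 0.0918). Fkbp1b, which encodes the ryanodine receptor partner FKBP12.6, was higher on average, at 2.09 and 3.71 CPM in KO26 and KO337, against 0.89 and 0.629 CPM in WT35 and WT338 (adjusted p = 0.0822). In the drug comparison 0 of 12 were called. Itpr2 (log2 0.43), Slc8a1 (-0.32) and Casq2 (-0.26) had the smallest p-values, with adjusted p of 0.823 to 0.824.

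**Figure D5:**
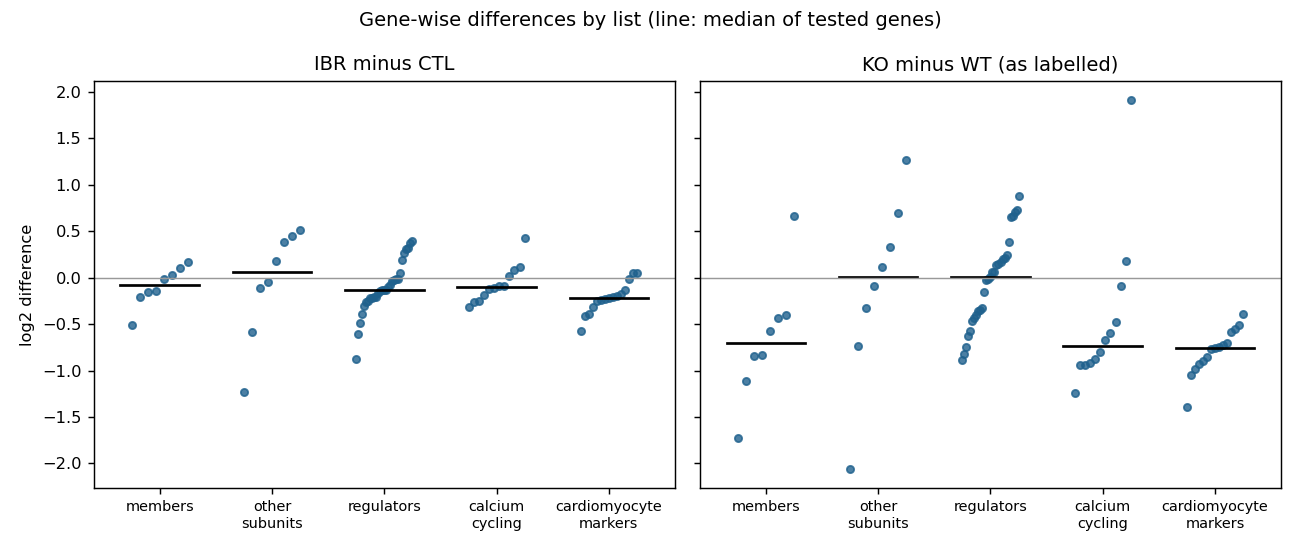
Log2 difference of each tested gene, by list, with a line at the median, IBR minus CTL on the left and KO minus WT on the right. In the genotype comparison the medians of the members (-0.70), the calcium cycling genes (-0.73) and the cardiomyocyte markers (-0.76) lie below 0. The medians of the other subunits and the regulators are 0.01 each, with genes on both sides.

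Genes with profiles most like each member were found by the root mean square difference of log2 CPM over the 10 libraries, after centring on the mean of each experiment, among 11844 candidates. Cacna1h, which itself varied by 0.43 about its own mean, lay nearest to Tmod1 (0.06) and Rbm20 (0.07), which encode tropomodulin and a splicing factor of titin. Nearest to Cacna1c were Myom2 and Vps13d (0.09 each), to Cacnb2 Klhl21 (0.08) and Prepl (0.09), and to Cacna2d1 Palmd (0.08) and Dcaf6 (0.09). Nearest to Cacna2d3 were Slc25a26 (0.14) and Ces1d (0.16), and to Cacna2d2 Ckb (0.15) and Tnfrsf23 (0.17). Cacna1g had Mrvi1 and Tmem109 (0.09 each), and Cacna1d had Tcp11l2 and Ddhd1 (0.12 each). Such distances grow with a gene's own variation, so they do not rank the members by how unusual their profiles are. That variation was 0.62 for Cacna2d3 and 0.39 for Cacna2d2, beside 0.25 for Cacna1d and 0.19 for Cacna1g. Among the members themselves the closest pair was Cacna1h and Cacnb2 (0.14), and Cacna2d2 lay farthest from any other (0.43 from Cacna1d). These are descriptions of the same values that gave the differences above.

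Strand was ignored in these counts, so reads over exon sequence that genes on opposite strands share cannot be assigned to either gene. The counts hold a separate row for ambiguous reads, with shares of 3.14% to 3.99%. How many of these reads came from the members was not tested. Exons of Cacna1d overlapped those of Chdh over 4.67% of their length, those of Cacna1h overlapped Tpsg1 over 1.62%, and those of Cacnb2 and Cacna2d2 overlapped noncoding genes over 7.32% (3 genes together) and 1.03%. Cacna1c, Cacna1g, Cacna2d1 and Cacna2d3 overlapped no exon of another gene in the annotation used here.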

How the data were processed

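Per the labels' protocols, poly(A) RNA of mouse left atria went into 10 directional libraries. The authors deposited unnormalized read counts for Ensembl genes, 1 file per library. STAR, HTSeq and edgeR and the build mm9 are named in the submitters' processing notes, with no version. On annotation and filters nothing is given in the sources used here, and the names of the deposited count files say that strand was ignored.

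Of the rows, 37583 named genes. The other 5, for unassigned reads, were left out of totals and fits, and held shares of 13.5% to 19.9% (no feature), 11.8% to 27.4% (not unique) and 3.14% to 3.99% (ambiguous). Symbols were matched for 32860 identifiers (87.4%). Gene totals of 14907331 to 19960947 make 3 counts worth 0.15 to 0.201 CPM. The titles gave the groups. Counts were analysed with edgeR 4.0.16 (limma 3.58.1, R 4.3.3): genes were kept by filterByExpr (minimum count 10, total 15), scaled by TMM (trimmed mean of M values, factors 0.87 to 1.23), and fitted in 1 robust quasi-likelihood model of group means, with 6 residual degrees of freedom. Biological variation (common coefficient) came to 0.221 in all, 0.167 for IBR with CTL and 0.291 for KO with WT. Standard errors were derived from each F statistic and its log2 difference, and 95% intervals from them. Exon lengths and overlaps came from GENCODE vM21. The fit was tested on simulated counts.

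Members and lists were chosen with earlier results of these data known. Named are all members, Csk, called genes of the 3 pathway lists or else the 3 smallest p per list and comparison, and the 2 nearest profiles per member. Alternatives were DESeq2 1.42.0, its size factors, no filter, scaling to cardiomyocyte markers, fits within each experiment, a replicate block and leaving out each library.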

Additional observations from a re-analysis of the deposited data

How the results depend on the processing

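Libraries number 2 or 3 a group, the libraries labelled KO differ widely in marker levels, and the genotype calls change with the library left out, so single calls near the threshold are uncertain. Under cardiomyocyte scaling the called genes split into 7272 higher and 86 lower, against 201 higher and 138 lower with TMM.

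Members called in KO against WT numbered 2, but 4 with DESeq2, 4 with no filter, 0 within the experiment alone, and 0 to 6 when a library was left out. For the difference of effects the count of 0 became 1 with DESeq2, 1 with no filter, and 0 to 5 when a library was left out. All genes called in KO against WT numbered 339, but 7358 with cardiomyocyte scaling, 1830 with DESeq2, 1146 with no filter, 0 within the experiment, and 14 to 3933 when a library was left out. For the difference of effects the 4 became 0, 140 and 84 with cardiomyocyte scaling, DESeq2 and no filter, and 0 to 1564 when a library was left out. For IBR against CTL the 0 genes became 2 with DESeq2 and 2 with no filter.

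In KO against WT the calling of 0 other subunits became 3, 1 and 1 with cardiomyocyte scaling, DESeq2 and no filter (0 to 2 without a library), that of 0 regulators 13, 5 and 4 (0 to 10), and that of 0 calcium cycling genes 4, 5 and 2 (0 to 10). The cause was not tested.

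Signs turned in these cases. With cardiomyocyte scaling, Cacna1c became 0.13 in IBR against CTL, 0.22 in KO against WT and 0.09 for the difference of effects, Cacna1d 0.52 and 0.54 and Cacna1g 0.49 and 0.17 in the last 2, Cacnb2 0.01 and Csk 0.12 in IBR against CTL. In IBR against CTL Cacna1c became 0.03 and Csk 0.02 with no filter, and Cacna1c 0.01 within the experiment. Leaving out a library gave -0.14 to 0.11 for Cacna1c, -0.05 to 0.25 for Cacna2d1, -0.14 to 0.16 for Cacna2d3, -0.11 to 0.03 for Csk and, in KO against WT, -0.07 to 1.13 for Cacna2d2.

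Same-numbered IBR and CTL libraries did not deviate together (correlations of 0.02, 0.16 and 0.03), so the numbers were not taken as pairs. With a replicate block 0 members and 0 genes were called in IBR against CTL, as without it. An arm left with 1 library was assumed to vary like the other groups.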

Other observations

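The vehicle and wild-type libraries belong to different experiments and were not tested against each other. Cacna1h averaged 445 ± 27.7 CPM in CTL (SD, n = 3) and stood at 188 and 186 CPM in WT35 and WT338, so that its share of the alpha1 level per kilobase was 81.1% to 84.8% in CTL and 67.6% and 62.6% in WT. Cacna1d averaged 14.99 ± 2.74 CPM in CTL (SD, n = 3) and stood at 20.7 and 28.2 CPM in WT35 and WT338. Experiment and group cannot be told apart here.

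Per 1000 counts of the cardiomyocyte markers, Cacna1g stood at 0.282, 0.289 and 0.28 in IBR1 to IBR3, against 0.244, 0.212 and 0.225 in CTL1 to CTL3, without overlap. The share of all genes without overlap on this scale was not counted. Scaled by TMM, the Cacna1g groups overlapped. Marker scaling moved the median log2 difference of all genes between IBR and CTL from -0.03 to 0.12. The log2 difference of Cacna1g on this scale, 0.32, had an interval from -0.26 to 0.90 and was not called.

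Bmp10, a gene of the right atrium in adult mice, stood at 4.47 CPM in KO26 and at most 0.569 CPM in the other 9 libraries. The 7 sinus node and conduction markers summed to 53.98 and 87.2 CPM in KO26 and KO337, against 61.8 and 67.6 CPM in WT35 and WT338. Of the 5 tested, 0 were called in the genotype comparison: Hcn4 (log2 -1.65) and Cntn2 (-3.90) were among those with negative differences, and Tbx3 (0.53) and Smoc2 (0.73) had positive ones. Shox2 had 0 counts in all libraries.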
